A study of Mus musculus with 13 samples.

Results

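Levels of 7 genes that are used to recognise or describe macrophages were compared between macrophages of the mouse sciatic nerve, macrophages of the optic nerve and microglia of the brain. The genes were the broad leukocyte and macrophage markers Ptprc, Cd53, Aif1 and Cd14 and the adhesion G protein-coupled receptors Adgre1, Adgre5 and Adgrg1. They were taken by symbol from a table of read counts for 48587 genes, of which 13246, all 7 genes included, passed a filter on low counts. The libraries were made from total RNA of C57BL/6J mice, 4 from sciatic nerve, 4 from optic nerve and 5 from brain, and the labels name no treatment, genotype, age or pooling. The question of the series is how macrophages of peripheral and central nervous tissue differ. The sciatic nerve is peripheral, while the optic nerve and the brain are central. Because the labels do not name separate animals, the p-values measure only the spread between these samples, which may be technical.

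Adhesion G protein-coupled receptors carry a long extracellular region that binds ligands on other cells or in the matrix, joined to a membrane-spanning region that couples to G proteins. In many of them the protein is cut within the extracellular region by its own activity. Adgre1 encodes F4/80, the classical surface marker of mouse macrophages. Adgre5 encodes CD97, a leukocyte receptor that binds the complement regulator CD55. Adgrg1 encodes GPR56, which binds collagen III and transglutaminase 2 and is known in the brain from neural progenitors and microglia. Ptprc encodes CD45, the transmembrane phosphatase of nucleated blood cells, which acts on Src family kinases. Cd53 encodes a tetraspanin of leukocytes, Aif1 the calcium-binding, actin-bundling protein IBA1 by which microglia are stained, and Cd14 the membrane-anchored co-receptor that hands lipopolysaccharide to TLR4.

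Promoters are shown for Cd53, whose level differed least between the tissues, for Ptprc, and for Adgrg1, whose level differed by more than that of either. The windows run 5′ to 3′ on the strand of the gene, from 250 bases before to 50 after a transcription start. They come from RefSeq on GRCm38.p6 and were taken for 4 of the 7 genes (Ptprc, Cd53, Adgrg1 and Aif1). The lack of a window for the other genes does not show that RefSeq has no entry for them. Capitals mark matches to the ETS core GGAAGT on either strand (ACTTCC on the opposite one). The first Ptprc window is chr1:138175256-138175555 on the minus strand, and the Cd53 window is chr3:106790100-106790399 on the minus strand. The Adgrg1 windows are chr8:94976859-94977158 and chr8:94984149-94984448 on the plus strand.
Ptprc: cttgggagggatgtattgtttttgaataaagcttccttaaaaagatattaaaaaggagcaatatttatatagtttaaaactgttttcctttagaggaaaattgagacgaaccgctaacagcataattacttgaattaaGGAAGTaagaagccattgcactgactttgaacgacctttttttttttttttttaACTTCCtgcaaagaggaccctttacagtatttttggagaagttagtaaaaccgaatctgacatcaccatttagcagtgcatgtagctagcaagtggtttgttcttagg
Cd53: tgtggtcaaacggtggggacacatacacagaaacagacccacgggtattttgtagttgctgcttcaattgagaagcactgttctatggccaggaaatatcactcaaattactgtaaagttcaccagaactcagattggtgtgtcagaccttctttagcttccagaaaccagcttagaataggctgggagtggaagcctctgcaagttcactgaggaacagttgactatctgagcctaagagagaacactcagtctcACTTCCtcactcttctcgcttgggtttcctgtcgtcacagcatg
Adgrg1, first start: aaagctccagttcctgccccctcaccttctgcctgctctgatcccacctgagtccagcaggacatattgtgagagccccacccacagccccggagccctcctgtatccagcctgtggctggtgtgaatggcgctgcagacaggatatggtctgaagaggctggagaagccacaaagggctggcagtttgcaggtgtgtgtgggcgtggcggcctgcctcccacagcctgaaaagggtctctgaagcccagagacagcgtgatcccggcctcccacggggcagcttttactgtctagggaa
Adgrg1, second start: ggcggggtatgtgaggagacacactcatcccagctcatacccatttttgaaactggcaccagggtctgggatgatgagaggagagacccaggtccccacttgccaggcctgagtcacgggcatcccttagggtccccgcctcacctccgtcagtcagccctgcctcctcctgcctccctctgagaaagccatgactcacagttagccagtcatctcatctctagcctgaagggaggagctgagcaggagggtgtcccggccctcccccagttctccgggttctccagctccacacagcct
The Ptprc window held 2 matches, beginning 112 bases before the start on the same strand and 58 bases before it on the opposite strand. The Cd53 window held 1 match, on the opposite strand, within the 50 bases after the start. That match is also the only match among these 4 windows to GAGGAAGT, a longer form that contains the core and that the macrophage factor PU.1 is known to bind. Neither Adgrg1 window nor the Aif1 window held either motif. Of 32851 windows of 300 bases in the same table, 23.8% held GGAAGT on one strand or the other and 3.2% held GAGGAAGT. The GC content was 33.7% in the Ptprc window, 46.3% in the Cd53 window, 45% in the Aif1 window and 60.7% in each Adgrg1 window. A match is a description of letters in a window and not evidence of binding.

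Total counts ran from 10.9 to 23.5 M per library, and log2 levels of replicates correlated across genes at 0.884 to 0.971. Levels are CPM (reads of a gene per 1e6 reads of its library) on library sizes scaled by TMM, a method that sets the bulk of genes equal between libraries. Marker sums followed the labelled tissues. Microglia markers (P2ry12, Tmem119, Sall1 and 7 others) summed to 3042 to 3365 CPM in sciatic nerve, 31134 to 35724 CPM in optic nerve and 34368 to 63565.5 CPM in brain. Markers of border macrophages (Mrc1, Cd163, Lyve1 and 5 others) summed to 13531 to 15926 CPM in sciatic nerve, 323 to 717 CPM in optic nerve and 8.82 to 29.2 CPM in brain. Brain replicate 1 stood apart, with the smallest total (10.9 M) and 3.79% mitochondrial reads, against 0.410% to 0.868% in the other brain libraries. In brain replicates 1 and 2 the microglia marker sum was 34368 and 45695 CPM, against at least 62979.7 CPM in replicates 3 to 5, so results that change without both are given below. Markers of T and NK cells summed to 24.0 to 28.5 CPM in sciatic nerve, led by Cd2, 0.558 to 6.51 in optic nerve and 0 to 0.712 in brain, with Cd3e and Cd8a at 0 reads in all libraries. Neutrophil markers summed to 12.4 to 52.5 CPM in sciatic nerve, 166 to 324 in optic nerve and 178 to 295 in brain, of which Csf3r was the most abundant and S100a8 and Ly6g had 0 reads.

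Between sciatic nerve and brain, 4 of the 7 genes were higher in sciatic nerve (Ptprc, Adgre1, Adgre5 and Cd14), 2 were lower (Adgrg1 and Aif1) and 1, Cd53, did not pass the test. A call here is an adjusted p under 0.05 (edgeR's quasi-likelihood F-test, adjusted by Benjamini and Hochberg's method over 13246 genes), and it was met by 48.4% of all genes, 24.1% higher and 24.3% lower in sciatic nerve. The libraries of the 2 tissues did not overlap for 6 of the 7 genes, against 41.3% of all genes. Between optic nerve and brain, 3 genes were higher in optic nerve (Ptprc, Adgre5 and Cd14), 2 were lower (Adgre1 and Adgrg1) and 2 were not called, with 36.9% of all genes called, 19.6% higher and 17.4% lower. The libraries did not overlap for 5 genes, against 31.8% of all genes. Between the nerves, 3 genes were higher in sciatic nerve (Adgre1, Adgre5 and Cd14), 2 were lower (Adgrg1 and Aif1) and 2 were not called, with 21.8% of all genes called, 10.9% in each direction. The libraries did not overlap for 5 genes there, against 29.9% of all genes. The median log2 fold change of the 7 genes was 0.88, 0.34 and -0.05 in the 3 comparisons, against -0.09, -0.08 and 0.00 over all genes. The comparisons share libraries, so their counts are not independent of each other. Both counts against brain include Adgre5, which had 1 read in brain and passed the filter on low counts only through the nerves. Its calls and its lack of overlap against brain follow from that selection. The shares of all genes called also stand beside the counts of listed genes given below. Scaling to library totals alone left all these calls but that of Cd53 as they were. It changed the split of all genes to 2242 higher and 4942 lower in the sciatic nerve comparison with brain, in place of 3191 and 3219, and to 1910 and 3258 in the optic nerve comparison, in place of 2590 and 2303. Between the nerves it gave 1151 higher and 2063 lower, in place of 1447 and 1445, and the median of all genes moved to -0.54, -0.33 and -0.18 in the 3 comparisons.

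**Figure D1:**
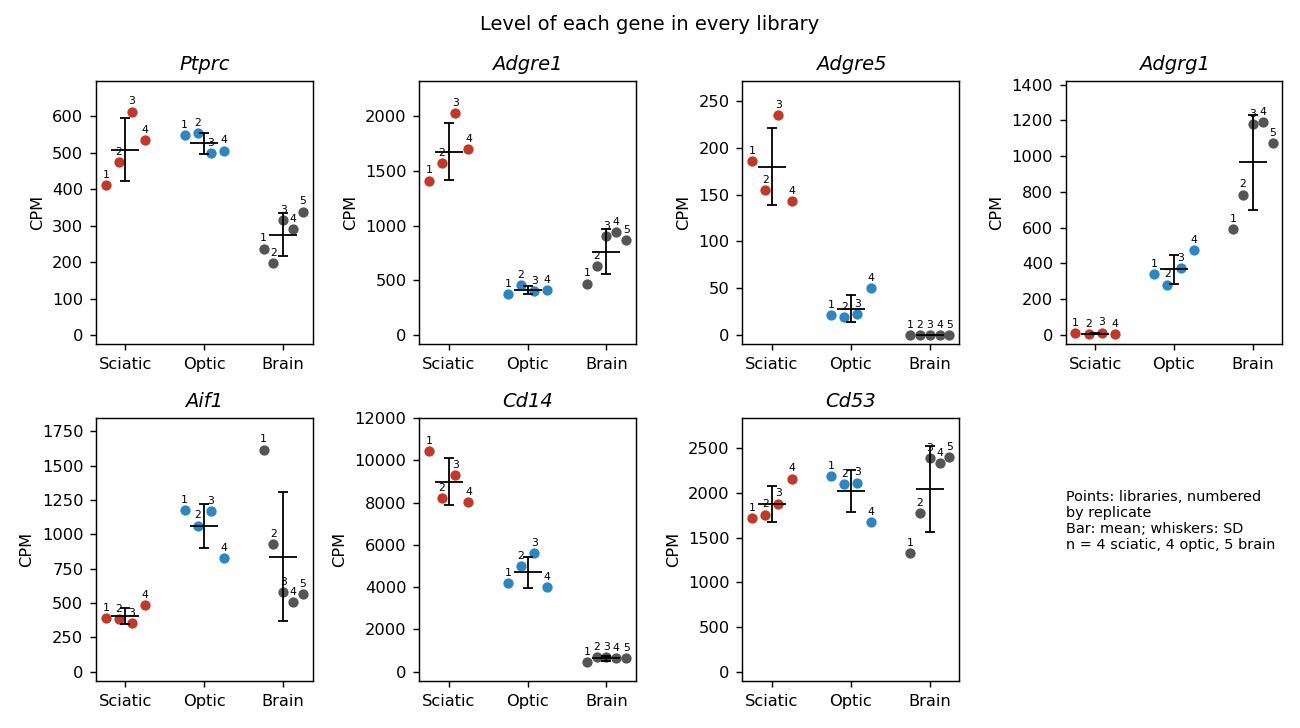
Level of each gene in CPM (vertical axis, linear, a scale per panel) in the 4 sciatic nerve, 4 optic nerve and 5 brain libraries, with points numbered by replicate, the mean as a bar and the SD as whiskers. Cd14 separates all 3 tissues in the order sciatic nerve, optic nerve, brain, Adgrg1 in the opposite order, and the Cd53 levels of the tissues overlap.

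Ptprc, which lies on chromosome 1 (138062861 to 138175708, minus strand, GRCm38), was higher in macrophages of both nerves than in microglia, and about equal between the nerves. Its levels were 412, 475, 613 and 535 CPM in the 4 sciatic nerve libraries, 548, 554, 498 and 506 CPM in optic nerve and 237, 196, 315, 291 and 339 CPM in brain. Every nerve library exceeded every brain library, while the nerves overlapped. The mean was 509 ± 85.7 CPM in sciatic nerve (SD, n = 4), 527 ± 28.3 in optic nerve (n = 4) and 276 ± 58.2 in brain (n = 5). The log2 fold change against brain was 0.88 (SE 0.17, adjusted p = 0.000492) in sciatic nerve and 0.93 (SE 0.17, adjusted p = 0.000576) in optic nerve. With library totals alone these values were 0.45 (adjusted p = 0.025) and 0.69 (adjusted p = 0.00346). Between the nerves the value was -0.05 with a 95% interval from -0.42 to 0.33 (adjusted p = 0.89). In such bulk libraries fewer cells of a type and less RNA per cell cannot be told apart.

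Cd53 (chromosome 3, 106759921 to 106790149, minus strand) had closely similar means in the 3 tissues. It measured 1716, 1758, 1883 and 2163 CPM in sciatic nerve, 2191, 2099.8, 2116 and 1677 in optic nerve and 1329.7, 1775, 2389.7, 2335 and 2404 in brain. The ranges of all 3 tissues overlapped, and the widest was that of brain, where replicates 1 and 2 were low. The log2 fold change was -0.12 (95% interval -0.50 to 0.25, adjusted p = 0.589) for sciatic nerve against brain. For optic nerve against brain it was -0.02 (interval -0.39 to 0.36, adjusted p = 0.949), and for sciatic against optic nerve -0.10 (interval -0.50 to 0.29, adjusted p = 0.756). On the log2 scale these intervals reach -0.50 in both comparisons of sciatic nerve and -0.39 for optic nerve against brain. They thus do not show equal levels. Without brain replicates 1 and 2, Cd53 was lower in sciatic nerve than in brain by a called amount (log2 fold change -0.34, adjusted p = 0.0214), and likewise with library totals alone (-0.56, adjusted p = 0.00698). Set against Ptprc within each library, which no scaling changes, there were 3.74 ± 0.489 Cd53 reads per Ptprc read in sciatic nerve, 3.84 ± 0.396 in optic nerve and 7.47 ± 1.27 in brain (SD, n = 4, 4 and 5). The nerve libraries, at 3.07 to 4.25, all lay below the brain libraries, at 5.602 to 9.04.

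Aif1 (chromosome 17, 35170991 to 35176068, minus strand) was lower in sciatic nerve macrophages than in the cells of either central tissue. Its levels were 393, 383, 353 and 485 CPM in sciatic nerve, 1179.6, 1065, 1172 and 829.6 in optic nerve and 1618, 929, 577, 505 and 566 in brain. All sciatic nerve libraries lay below all others, and the optic nerve range fell inside that of brain. Brain replicate 1, the library with the most mitochondrial reads, was the highest of the 13, and brain replicates 1 and 2 stood above the other brain libraries. The mean was 404 ± 57.1 CPM in sciatic nerve, 1061 ± 163 in optic nerve and 839 ± 466 in brain. The log2 fold change was -1.06 (SE 0.30, adjusted p = 0.0089) for sciatic nerve against brain and -1.39 (SE 0.31, adjusted p = 0.00421) for sciatic against optic nerve. For optic nerve against brain it was 0.34 (95% interval -0.28 to 0.96, adjusted p = 0.381). This last comparison turned on the brain libraries: the value was 0.72 (adjusted p = 0.00809) without brain replicate 1 and 0.96 (adjusted p = 0.000177) without replicates 1 and 2, while the value for sciatic nerve against brain shrank to -0.45 (adjusted p = 0.0165).

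The actin genes listed with Aif1 were mostly higher in the nerves. Of 19 tested genes for actin bundling, nucleation and turnover, 12 were higher in sciatic nerve than in brain and 2 lower (median log2 fold change 0.92), and 11 were higher in optic nerve and 1 lower (median 0.91). Between the nerves 3 were higher in sciatic nerve and 2 lower (median 0.05). Capg, which caps actin filaments, averaged 308 ± 74.9 CPM in sciatic nerve, 360 ± 66.8 in optic nerve and 35.1 ± 5.24 in brain. The filament-severing gene Gsn averaged 210.2 ± 47.0, 25.1 ± 10.8 and 4.43 ± 2.07 CPM in the same order, a log2 fold change of 5.55 (SE 0.39, adjusted p = 2.22e-08) for sciatic nerve against brain. Fibroblasts also express Gsn, and the 8 fibroblast markers, Gsn among them, summed to 197 to 415 CPM in sciatic nerve, 13.02 to 41.3 CPM in optic nerve and 2.27 to 7.65 CPM in brain. Gsn itself made up most of this sum, whose median was 241, 25.9 and 4.84 CPM in the same order. Of these markers, Col3a1, Lum and Mfap5 had 0 reads in brain, so any of them that was tested had passed the filter on low counts through the nerves. Of the 8 markers 7 were tested, all of them higher in sciatic nerve than in brain. Their part in the Gsn difference was not tested. Lcp1, the leukocyte actin bundler L-plastin, averaged 2369 ± 372 CPM in sciatic nerve, 1046 ± 55.0 in optic nerve and 860 ± 345 in brain. Fscn1, which encodes the bundling protein fascin, went with Aif1 instead: it averaged 11.8 ± 2.45 CPM in sciatic nerve, 221 ± 42.4 in optic nerve and 297 ± 73.7 in brain (log2 fold change -4.65, SE 0.24, adjusted p = 8.02e-10 for sciatic nerve against brain).

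Cd14, on chromosome 18, had the highest level per length of the 7 genes in both nerves and separated the 3 tissues without overlap. It measured 10430.0, 8208, 9311 and 8043 CPM in sciatic nerve, 4184, 5004, 5607 and 4006 in optic nerve and 449.9, 699, 683, 657 and 658 in brain. The lowest sciatic nerve library exceeded the highest optic nerve library, and the lowest optic nerve library exceeded every brain library several times over. The mean was 8998 ± 1108 CPM in sciatic nerve, 4700.4 ± 744 in optic nerve and 629 ± 102 in brain, a level 14.3-fold higher in sciatic nerve and 7.47-fold higher in optic nerve than in brain. The log2 fold changes were 3.84 (SE 0.17, adjusted p = 1.5e-10) for sciatic nerve against brain, 2.90 (SE 0.17, adjusted p = 4.65e-09) for optic nerve against brain and 0.94 (SE 0.17, adjusted p = 0.000807) between the nerves. Per kilobase of transcript, Cd14 ranked 14 in sciatic nerve, 19 in optic nerve and 95 in brain among 11256 genes with a known length. Cd14 reads alone made up 0.664% to 0.875% of all reads in the sciatic nerve libraries.

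Immediate early and dissociation response genes moved with Cd14 against brain, and less uniformly between the nerves. Their summed level was 34139 to 39881 CPM in sciatic nerve, 17517 to 22215 CPM in optic nerve and 1165 to 1495 CPM in brain, and 21 of 22 were called higher in each nerve than in brain. Between the nerves 8 were higher in sciatic nerve, 2 were lower and 12 were not called (median log2 fold change 0.25). Sciatic nerve replicate 1 and brain replicate 1 were the extremes of both the Cd14 level and this sum. Among the optic nerve libraries, replicate 4 had the highest sum (22215 CPM) and the lowest Cd14 level (4006 CPM). The summed levels of monocyte and dendritic cell markers were highest in sciatic nerve as well. Most of each sum there came from 1 gene, Ccr2 (458 CPM on average) and Cd209a (358 CPM). The 8 monocyte markers summed to 427 to 594 CPM in sciatic nerve, led by Ccr2, 43.2 to 66.6 in optic nerve and 20.8 to 57.5 in brain, and 3 of 4 tested were higher in sciatic nerve than in brain. The 7 dendritic cell markers summed to 353 to 456 CPM in sciatic nerve, led by Cd209a, 15.0 to 60.6 in optic nerve and 6.16 to 13.5 in brain, and of 6 tested 5 were called higher against brain and 1 was called lower. Between the nerves, only Ccr2 of the 4 tested monocyte markers was called higher in sciatic nerve. Of the 6 tested dendritic cell markers, only Cd209a was called higher there, 1 (Itgae) was called lower and 4 were not called. Chil3 of the monocyte list had 0 reads in both nerves, and Ccr7 and Cd209a had 0 reads in brain. The part of any of these lists in the differences of Cd14, Adgre5, Lyz2 and Cd44 was not tested.

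The other parts of the lipopolysaccharide receptor did not follow Cd14 as a block. Of 21 genes of the CD14 and TLR4 list, 7 were higher in sciatic nerve than in brain, 5 lower and 9 not called. Against brain, 8 were higher in optic nerve and 2 lower, and between the nerves 3 were higher in sciatic nerve and 6 lower. Tlr4, the signalling receptor, averaged 71.2 ± 33.6 CPM in sciatic nerve, 42.3 ± 22.2 in optic nerve and 165 ± 85.2 in brain. It was lower in optic nerve than in brain (log2 fold change -1.97, SE 0.51, adjusted p = 0.00768), while sciatic nerve against brain gave -1.22 (adjusted p = 0.0546). Ly96, which encodes the lipopolysaccharide-binding partner MD-2, averaged 134 ± 19.0, 52.7 ± 6.96 and 78.6 ± 24.7 CPM in sciatic nerve, optic nerve and brain. It was higher in sciatic than in optic nerve (log2 fold change 1.34, SE 0.22, adjusted p = 0.000305). Tlr2, another receptor that Cd14 serves, resembled Cd14 against brain, with 1978 ± 428 CPM in sciatic nerve, 2151 ± 239 in optic nerve and 285 ± 82.3 in brain (log2 fold changes 2.79 and 2.91, SE 0.23 each), but not between the nerves (-0.12, adjusted p = 0.774). The adaptor Myd88 averaged 438 ± 28.3 CPM in sciatic nerve, 579 ± 118 in optic nerve and 113 ± 26.3 in brain. Lbp, which encodes the serum protein that loads CD14, had 228 reads in sciatic nerve, 1 read in optic nerve and 0 reads in brain, at least 146-fold higher in sciatic nerve than the floor of 3 counts over the brain libraries. Trem1, an amplifier of this signalling, was the reverse case between the nerves, with 2 reads in sciatic nerve, 639 reads in optic nerve (8.71 ± 1.69 CPM) and 0 reads in brain. Lbp passed the filter on low counts only through sciatic nerve and Trem1 only through optic nerve. Any calls of Lbp and Trem1, between the nerves as well, follow from that selection.

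Adgre1 (chromosome 17, 57358691 to 57483527, plus strand) was highest in sciatic nerve and lowest in optic nerve, so that the 2 nerve tissues stood on opposite sides of brain. Its levels were 1409, 1569, 2026 and 1698 CPM in sciatic nerve, 372, 457, 402 and 410.3 in optic nerve and 469, 626, 903, 939 and 865 in brain. No pair of tissues overlapped, although brain replicate 1 came close to the highest optic nerve library. The mean was 1676 ± 262 CPM in sciatic nerve, 410.3 ± 35.0 in optic nerve and 760.2 ± 204 in brain. Against brain the log2 fold change was 1.14 in sciatic nerve (SE 0.19, 95% interval 0.73 to 1.55, adjusted p = 0.000186) and -0.89 in optic nerve (SE 0.20, interval -1.31 to -0.47, adjusted p = 0.00271). With library totals alone the value for sciatic nerve was 0.71 (adjusted p = 0.00392). Between the nerves it was 2.03 (SE 0.21, interval 1.58 to 2.48, adjusted p = 4.08e-06). Per Ptprc read there were 3.30 ± 0.101 Adgre1 reads in sciatic nerve, 0.780 ± 0.0680 in optic nerve and 2.76 ± 0.518 in brain, so relative to Ptprc the optic nerve alone stood far from the other tissues.

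Adgre5 (chromosome 8, 83723251 to 83741326, minus strand) was found in macrophages of both nerves and, but for a single read, not in brain. It measured 186, 155, 235 and 143 CPM in sciatic nerve and 21.1, 18.8, 22.2 and 49.7 CPM in optic nerve, with 0 reads in brain replicates 1 to 4 and 1 read (0.0418 CPM) in replicate 5. The nerves did not overlap, and optic nerve replicate 4 was above the other 3 optic nerve libraries. In all there were 10491 reads in sciatic nerve, 2006 in optic nerve and 1 in brain. The ratio of the pooled levels to brain was 20238 for sciatic nerve (95% counting interval 3631 to 799419) and 3097 for optic nerve (555 to 122390), intervals that cover counting error only. Adgre5 passed the filter on low counts only through the nerve libraries, so its calls against brain (adjusted p = 5.24e-11 for sciatic nerve and 1.27e-09 for optic nerve) follow from its selection. Between the nerves its log2 fold change was 2.69 (SE 0.31, adjusted p = 1.48e-05). The mean was 179.7 ± 41.1 CPM in sciatic nerve and 27.9 ± 14.6 CPM in optic nerve. Without brain replicate 5, brain held 0 reads.

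Border macrophage markers were also highest in optic nerve replicate 4 among the optic nerve libraries, with a sum of 717 CPM against 323 to 486 CPM in the other 3, and their part in its Adgre5 level was not tested. On the chromosome, Adgre5 shares 895 exonic bases with Ddx39, a helicase gene on the opposite strand, and the strand setting of the counting is not given in the sources used here. Ddx39 averaged 81.4 ± 16.5 CPM in sciatic nerve, 96.2 ± 20.96 in optic nerve and 30.5 ± 5.00 in brain. It did not differ by a called amount between the nerves (log2 fold change -0.24, adjusted p = 0.455), and the brain libraries held 3535 Ddx39 reads beside the single Adgre5 read.

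Adgrg1 (chromosome 8, 94974751 to 95014217, plus strand) ran the opposite way, with little in sciatic nerve, an intermediate level in optic nerve and its highest level in brain. It measured 10.5, 4.36, 12.96 and 4.13 CPM in sciatic nerve, 342, 282, 372 and 475 in optic nerve and 594, 785, 1179.7, 1193 and 1075 in brain. The 3 tissues did not overlap. The mean was 7.98 ± 4.43 CPM in sciatic nerve, from 465 reads, 368 ± 80.6 in optic nerve and 965 ± 265 in brain. The log2 fold change was -6.92 for sciatic nerve against brain (SE 0.42, adjusted p = 4.23e-09) and -5.53 for sciatic against optic nerve (SE 0.40, adjusted p = 9.34e-08). For optic nerve against brain it was -1.39 (SE 0.32, adjusted p = 0.00374). Of the 13246 genes, 185 had a more negative log2 fold change for sciatic nerve against brain. Microglia markers had the same order of tissues in the sums given above, with 10 of 10 lower in sciatic nerve than in brain, and their part in the Adgrg1 difference was not tested.

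**Figure D2:**
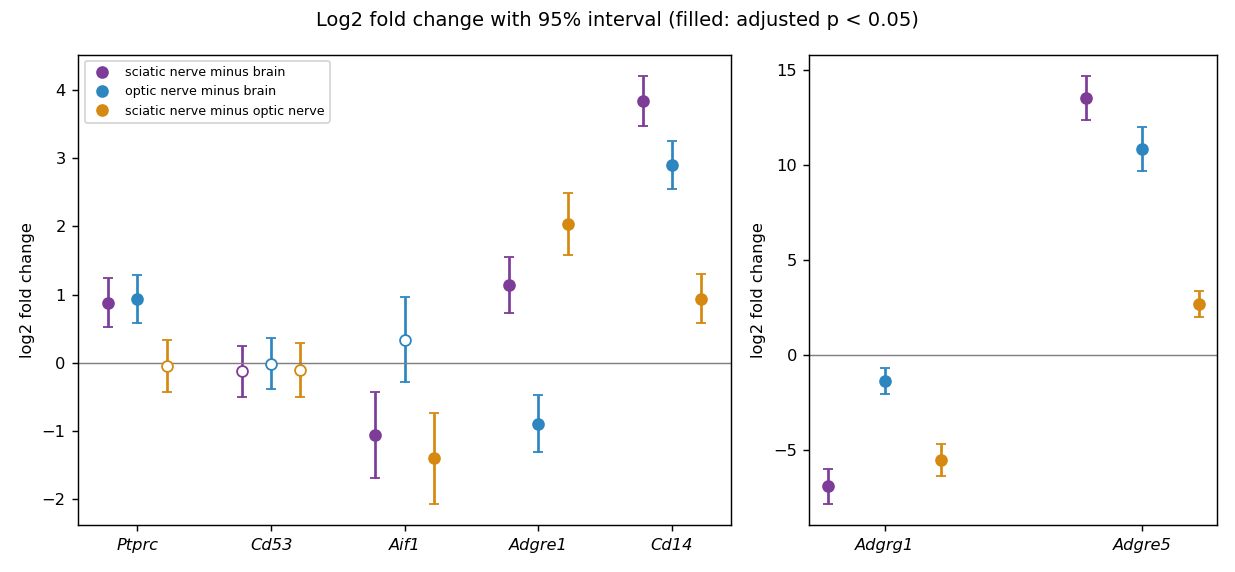
Log2 fold change of each gene (vertical axes, with a wider scale in the right panel for Adgrg1 and Adgre5) in the 3 comparisons, with 95% intervals from edgeR's quasi-likelihood fit and filled points for an adjusted p under 0.05. All 3 intervals of Cd53 cross 0, and Adgre1 lies above 0 for sciatic nerve and below 0 for optic nerve against brain.

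Within each library the 3 receptors made up a different mix in each tissue. Levels of different genes were compared per kilobase of the longest coding transcript, as shares of the summed CPM per kilobase of the 3. In sciatic nerve Adgre1 held 87.0% to 91.5%, Adgre5 8.30% to 12.4% and Adgrg1 0.199% to 0.579%. In optic nerve Adgre1 held 46.1% to 62.6%, Adgre5 2.78% to 6.03% and Adgrg1 34.6% to 47.8%. In brain Adgre1 held 46.1% to 47.3% and Adgrg1 52.7% to 53.9%, with Adgre5 at 0% in 4 libraries and 0.00247% in 1. The brain libraries differed little in this mix, replicates 1 and 2 included, whose levels of both genes were low. Counted as reads, sciatic nerve had 0.742, 0.278, 0.640 and 0.243 Adgrg1 reads per 100 Adgre1 reads, optic nerve 91.8, 61.8, 92.6 and 115.8 and brain 127, 125.5, 131, 127 and 124.

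**Figure D3:**
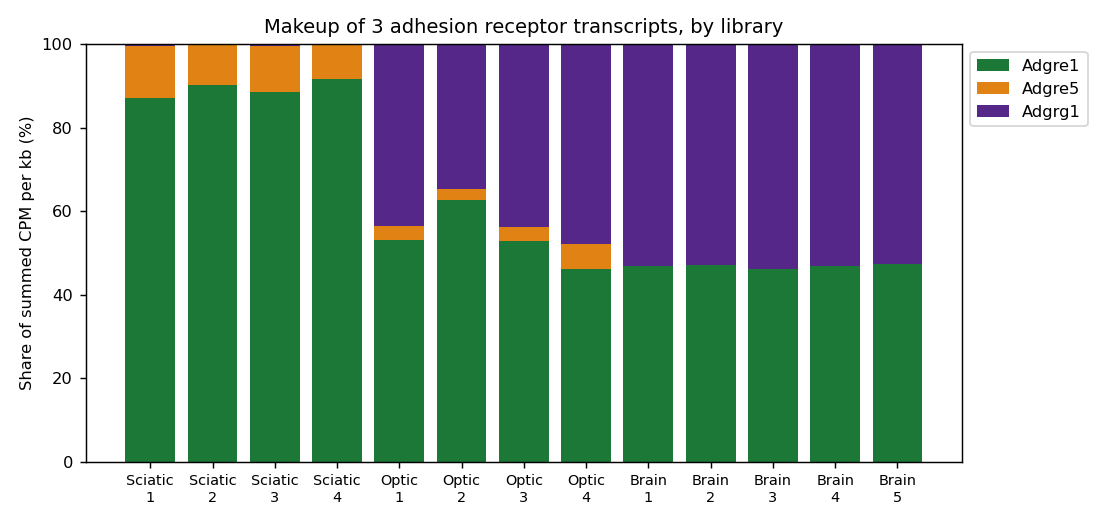
Share of each of Adgre1, Adgre5 and Adgrg1 in their summed CPM per kilobase (vertical axis, percent) in each of the 13 libraries. Adgre1 takes at least 87.0% in the sciatic nerve libraries, and Adgrg1 takes 34.6% to 47.8% in the optic nerve and 52.7% to 53.9% in the brain libraries.

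On the same per-length scale, the mean levels of the 7 genes were ordered differently in each tissue. In sciatic nerve Cd14 stood at 5483 CPM per kilobase, Cd53 at 1079, Adgre1 at 518, Aif1 at 461, Ptprc at 100.3, Adgre5 at 59.9 and Adgrg1 at 2.21. In optic nerve the order was Cd14 at 2864 CPM per kilobase, Aif1 at 1213, Cd53 at 1160.1, Adgre1 at 127, Ptprc at 104, Adgrg1 at 102 and Adgre5 at 9.31. In brain it was Cd53 at 1175 CPM per kilobase, Aif1 at 959, Cd14 at 383, Adgrg1 at 267, Adgre1 at 235, Ptprc at 54.3 and Adgre5 at 0.00278. Some neighbours in these orders lay closer to each other than their SDs: Adgre1 and Aif1 in sciatic nerve, Aif1 and Cd53 as well as Ptprc and Adgrg1 in optic nerve, and Cd53 and Aif1 as well as Adgrg1 and Adgre1 in brain. Transcript lengths in use can differ from the longest one, which limits comparisons of close values.

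Of the other 27 adhesion receptor genes, 6 passed the filter. Among these 6, sciatic nerve was higher than brain in 3 and lower in 2 (against 24.1% and 24.3% of all genes), optic nerve was higher in 1 and lower in 1, and sciatic nerve was higher than optic nerve in 2. Adgrg6 and Celsr3, both among the 3, had 3 and 5 reads in brain and passed the filter on low counts through the nerves. Their calls against brain thus follow from their selection. Adgrg6 passed through sciatic nerve, so its call between the nerves does as well. The call of Celsr3 (adjusted p = 0.0327) was lost without brain replicates 1 and 2 (adjusted p = 0.108). It was also lost in 6 of the 13 fits that left out 1 library, with adjusted p up to 0.0853. Adgre4, a macrophage receptor of the same subfamily as Adgre1 and on the same chromosome in mouse, averaged 41.2 ± 12.8 CPM in sciatic nerve, 2.26 ± 1.45 in optic nerve and 2.20 ± 2.13 in brain. Unlike Adgre1 it did not separate optic nerve from brain (log2 fold change 0.03, adjusted p = 0.982), while sciatic nerve against brain gave 4.21 (SE 0.69, adjusted p = 0.000139). Adgrg6, known as GPR126 from its role in Schwann cell myelination, had 1079 reads in sciatic nerve, 69 in optic nerve and 3 in brain. The ratio of pooled levels to brain was 694 for sciatic nerve (95% counting interval 237 to 3369.6) and 35.5 for optic nerve (11.7 to 176). Of the 69 optic nerve reads 58 came from replicate 4, without which 11 remained, the log2 fold change against brain moved to 2.57, from a value of 4.91 with it, and the call was lost (adjusted p = 0.0873). The 8 Schwann cell markers, led by Pmp22, summed to 1085 to 1222 CPM in sciatic nerve, 621 to 851 in optic nerve and 374 to 786 in brain. Of these, 3 of 6 tested were higher in sciatic nerve than in brain and Sox10 had 0 reads in sciatic nerve. The part of such cells in the Adgrg6 level was not tested. The latrophilin Adgrl2 went the other way, with 8.74 ± 2.06 CPM in sciatic nerve, 9.85 ± 4.86 in optic nerve and 27.8 ± 9.69 in brain (log2 fold changes against brain -1.67 and -1.50, adjusted p = 0.00131 and 0.00426). The genes that flank Adgrg1 on chromosome 8 did not share its level: Adgrg5 had 8 reads in sciatic nerve, 28 in optic nerve and 0 in brain, and Adgrg3 had 0, 3 and 0.

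The ligands of these receptors were measured in the same libraries. Cd55, the ligand of CD97, had 592 reads in sciatic nerve, 3 in optic nerve and 0 in brain, with 5.88 to 20.3 CPM in the sciatic nerve libraries. Sciatic nerve replicate 4 gave 305 of the 592 reads. Its level in sciatic nerve was at least 378-fold higher than the floor of 3 counts over the brain libraries, and 247 times that in optic nerve (95% counting interval 84.0 to 1199). Cd55 passed the filter on low counts only through sciatic nerve. Its calls against both other tissues follow from that selection. Col3a1, which encodes the collagen bound by GPR56, had 649 reads in sciatic nerve, 57 in optic nerve and 0 in brain. Replicate 4 gave 53 of the optic nerve reads and replicate 1 gave 360 of those in sciatic nerve, which leaves 4 and 289 without them. Col3a1 is a fibroblast gene and one of the fibroblast markers given with Gsn, whose sum was mostly Gsn. Of the 7 tested markers, Col3a1 and Gsn among them, 7 were higher in sciatic nerve than in brain. In optic nerve 2 were higher than in brain, and 5 were higher in sciatic than in optic nerve. The part of fibroblasts in the Col3a1 level was not tested. Tgm2, the transglutaminase bound by GPR56, averaged 2.10 ± 0.596 CPM in sciatic nerve, 143 ± 28.6 in optic nerve and 57.0 ± 11.6 in brain. Its log2 fold change was -4.76 for sciatic nerve against brain (SE 0.26, adjusted p = 1.28e-09), 1.33 for optic nerve against brain (SE 0.21, adjusted p = 0.000175) and -6.09 between the nerves (SE 0.28, adjusted p = 1.14e-09). Tgm2 was thus low where Adgrg1 was low, but highest in optic nerve, where Adgrg1 was not. The integrin Itga5, a binding partner of CD97, averaged 306 ± 94.8 CPM in sciatic nerve, 450.5 ± 44.8 in optic nerve and 18.6 ± 8.68 in brain. Of the 17 tested ligands, G proteins and effectors, 6 were higher and 3 lower in sciatic nerve against brain, 5 higher and 2 lower in optic nerve against brain, and 1 higher and 4 lower in sciatic than in optic nerve. These counts lay near the shares of all genes called, which were 48.4%, 36.9% and 21.8% in the same order. Among the G proteins that these receptors are known to use, Gna12 averaged 259.8 ± 38.05 CPM in sciatic nerve, 286 ± 34.0 in optic nerve and 351 ± 87.7 in brain, and was called in no comparison. Gna13 was likewise called in none.

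Genes that work with CD45 were split between the tissues. Of 23 tested, 7 were higher and 8 lower in sciatic nerve against brain (median log2 fold change -0.12), 8 higher and 6 lower in optic nerve against brain (median 0.47), and 5 higher and 7 lower in sciatic than in optic nerve (median -0.33). Lgals1, which encodes the CD45-binding lectin galectin-1, averaged 772 ± 98.8 CPM in sciatic nerve, 43.9 ± 16.5 in optic nerve and 2.31 ± 2.40 in brain (log2 fold change 8.48, SE 0.57, adjusted p = 1.16e-08 for sciatic nerve against brain). Pag1, the adaptor that brings the inhibitory kinase Csk to the membrane, ran the other way with 7.69 ± 3.19 CPM in sciatic nerve, 99.0 ± 24.0 in optic nerve and 212 ± 19.4 in brain. Of the Src family kinases, Lyn averaged 305 ± 16.7 CPM in sciatic nerve, 587 ± 17.0 in optic nerve and 786 ± 159 in brain, and was lower in sciatic nerve than in both. Fgr was highest in optic nerve, with 2.91 ± 3.15 CPM in sciatic nerve, 35.2 ± 9.23 in optic nerve and 5.36 ± 2.16 in brain. The phosphatase gene Ptpn22 averaged 49.5 ± 13.8 CPM in sciatic nerve, 4.77 ± 1.93 in optic nerve and 3.42 ± 2.23 in brain.

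Tetraspanins other than Cd53 were mostly lower in sciatic nerve. Of 20 tested, 5 were higher and 12 lower in sciatic nerve against brain (median log2 fold change -1.24), 5 higher and 3 lower in optic nerve against brain (median -0.02), and 1 higher and 10 lower in sciatic than in optic nerve (median -0.59). Cd9 averaged 183 ± 34.6 CPM in sciatic nerve, 1864 ± 241 in optic nerve and 1503 ± 206 in brain, a log2 fold change of -3.04 for sciatic nerve against brain (SE 0.18, adjusted p = 2.69e-09). Cd81, which binds GPR56, averaged 1836 ± 141, 4827 ± 604 and 3689 ± 761 CPM in sciatic nerve, optic nerve and brain (log2 fold change -1.01, SE 0.17, adjusted p = 0.000167 for sciatic nerve against brain). Cd37, which like Cd53 is a tetraspanin of leukocytes, averaged 180.1 ± 22.01 CPM in sciatic nerve, 453 ± 32.4 in optic nerve and 444 ± 29.8 in brain (log2 fold change -1.30, SE 0.12, adjusted p = 6.41e-07 for sciatic nerve against brain). Tspan7 averaged 13.6 ± 2.06, 243 ± 29.3 and 291 ± 40.5 CPM, and Tspan17, among the few that were higher in sciatic nerve, 49.9 ± 6.04, 12.6 ± 2.95 and 1.22 ± 1.38 CPM in the same order.

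Some other genes in general use as macrophage or leukocyte markers also differed between the tissues. Of 18 pan-macrophage genes, 3 rose and 10 fell in sciatic nerve against brain (median log2 fold change -0.45), 4 higher and 3 lower in optic nerve against brain (median 0.07), and 1 higher and 10 lower in sciatic than in optic nerve (median -0.60). Of all genes 48.4%, 36.9% and 21.8% were called in these comparisons. The count for optic nerve against brain lay near its share. Lyz2, which encodes lysozyme, averaged 28940 ± 3251 CPM in sciatic nerve, 4100.3 ± 486 in optic nerve and 159 ± 40.0 in brain, and its log2 fold change for sciatic nerve against brain was 7.51 (SE 0.22, adjusted p = 2.98e-12). Cx3cr1, the fractalkine receptor, averaged 242 ± 47.2 CPM in sciatic nerve, 1808 ± 199.6 in optic nerve and 4641 ± 1016 in brain. Mertk, a receptor for the uptake of dying cells, averaged 55.7 ± 11.3, 169 ± 6.88 and 675 ± 129 CPM in the same order. Cd68, Fcgr3 and Spi1, which encodes PU.1, were called in no comparison, like Cd53, with Spi1 at 351 ± 40.5 CPM in sciatic nerve, 425 ± 47.4 in optic nerve and 345 ± 48.6 in brain. Of 13 leukocyte surface genes, 5 rose and 3 fell in sciatic nerve against brain (median 0.40), 6 higher and 3 lower in optic nerve against brain (median 0.66), and 3 higher and 4 lower in sciatic than in optic nerve (median 0.11). Selplg, the selectin ligand PSGL-1, averaged 229.99 ± 45.9 CPM in sciatic nerve, 2570.5 ± 469 in optic nerve and 5645 ± 1131 in brain, whereas the hyaluronan receptor Cd44 averaged 252 ± 42.0, 43.6 ± 6.56 and 2.31 ± 2.54 CPM.

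**Figure D4:**
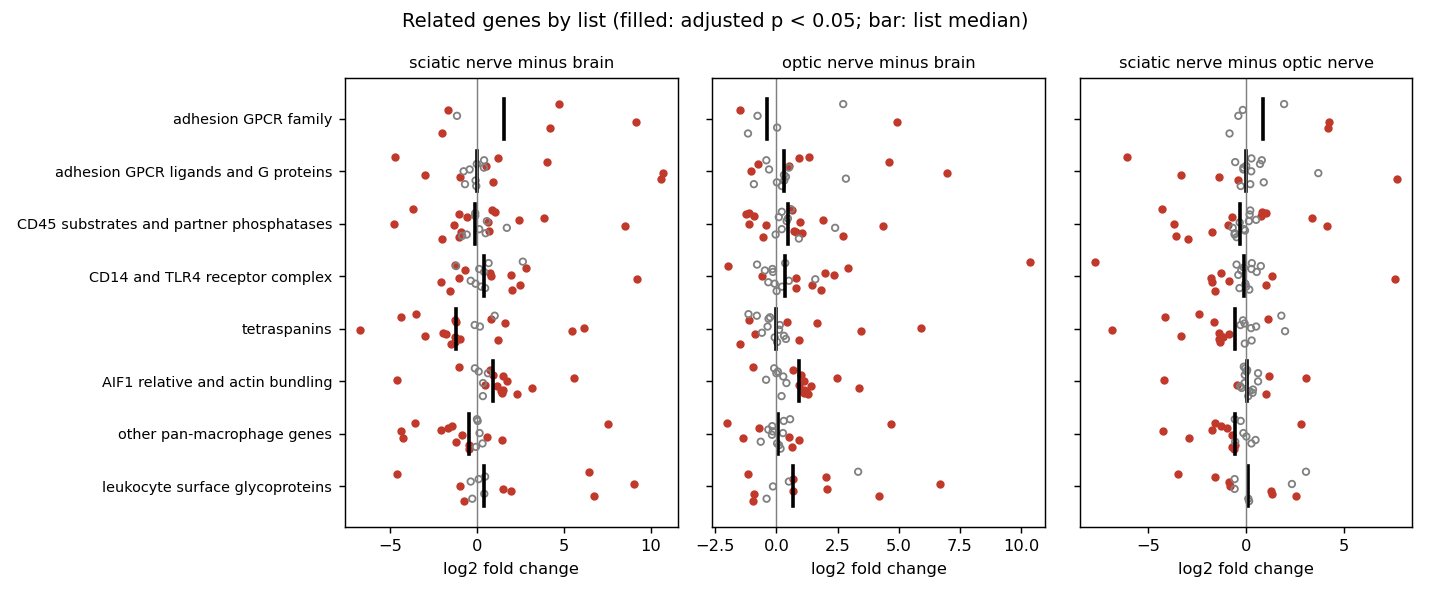
Log2 fold change (horizontal axis, a scale per panel) of the tested genes of each list (rows) in the 3 comparisons, without the 7 genes themselves, with filled points for an adjusted p under 0.05 and a bar at the list's median. The tetraspanin median lies at -1.24 and the actin list median at 0.92 for sciatic nerve against brain, and genes of each list lie on both sides of 0.

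The genes most like each of the 7 were found by Pearson correlation of log2 CPM over the 13 libraries, in which libraries of a tissue share their level, so that r mostly reflects the tissue means. Adgre5 was nearest to Timd4 (r = 0.998), a phosphatidylserine receptor of resident macrophages, then to Ier3 and the chemokine gene Cxcl2 (0.995 and 0.994). Timd4 and Cxcl2 averaged 0 CPM in brain, where Adgre5 had 1 read, so these values rest in part on a shared floor. In sciatic and optic nerve Timd4 averaged 237 and 30.2 CPM, and Cxcl2 5902 and 336 CPM. Adgrg1 was nearest to Tlr12 (0.998), Slc2a5 (0.996) and Ptgs1 (0.995), of which Slc2a5, a fructose transporter gene, averaged 0.700 CPM in sciatic nerve, 307 in optic nerve and 1156 in brain. Adgre1 was nearest to Lifr, a cytokine receptor gene (0.979), with Myadm at 0.970 and Txndc16 at 0.967. Lifr averaged 278 CPM in sciatic nerve, 33.6 in optic nerve and 89.3 in brain, and so shared the low point in optic nerve. Cd14 was nearest to Tubb6 (0.997), Litaf (0.996) and Sri (0.995). The values for the other 3 genes were lower: Aif1 was nearest to Svbp (0.982), Ptprc to Skil (0.974) and Cd53 to Arl6ip1 (0.945). Among the 7 genes themselves, Adgre5 and Cd14 were the most alike (r = 0.989), and Adgre1 and Aif1 the most opposed (-0.922).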

How the data were processed

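The authors deposited raw counts of reads for each gene symbol, made with STAR and featureCounts 1.5.1 on mm10, per the submitters' processing notes; not given in the sources used here: STAR's version, annotation, strand setting and multimapping. The nerve columns carry tissue initials and replicate numbers, and 5 columns whose prefix no label explains were assigned to brain by elimination. Columns of per-sample values not used numbered 0.

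All 13 libraries entered 1 fit in edgeR 4.0.16 (R 4.3.3): filterByExpr by tissue, TMM scaling, quasi-likelihood test of 3 contrasts without a replicate block, Benjamini-Hochberg adjustment over 13246 genes, calls at an adjusted p under 0.05. Log2 CPM for correlations used a prior count of 2. Standard errors and 95% intervals come from the fit. Total counts were 10.9 to 23.5 M, and 0 reads over a tissue allow a CPM of up to 0.0512 (sciatic nerve), 0.0409 (optic nerve) or 0.0265 (brain), from 3 counts. Intervals and floors on counts cover counting error only. Positions and transcript lengths are from GENCODE M21 and promoters from RefSeq (GRCm38.p6). The test was also run on counts simulated from its own fitted spread, with far fewer changed genes than were called here. That run cannot show how the calls behave on these data.

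The 7 genes, the 8 lists of related genes and the 15 marker lists were chosen with earlier results of these data known. Named list genes are up to 3 called genes per direction with the largest fold per comparison, and of marker lists the most abundant; Cd37, Lyn, Gna12, Gna13, Cd68, Fcgr3 and Spi1 were named after their values were seen. Alternatives were DESeq2 1.42.0, RLE scaling, library totals only, no low-count filter, 2 tissues per fit, a replicate block, each replicate left out, and brain replicates 1 and 2 left out. Deviations from the tissue means correlated at -0.078 to 0.077 between same-numbered libraries of 2 tissues and at -0.098 to 0.098 between differently numbered ones. This comparison cannot exclude that same-numbered libraries shared an animal or a preparation.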

Additional observations from a re-analysis of the deposited data

Results flagged for a closer look

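Each of the 7 genes was examined for a library far from the others of its tissue (21 groups of 4 or 5 libraries, by the gap to the nearest library over the range of the group), and 3 groups held one. Chance flags about 1 in 20 groups. Adgre5 was high in optic nerve replicate 4, at 49.7 CPM, with a gap of 0.892 of the range. Adgre5 in brain replicate 5, at 0.0418 CPM, rests on 1 read beside 4 libraries with 0 reads. Cd14 was low in brain replicate 1, at 449.9 CPM (0.831 of the range), the library with 3.79% mitochondrial reads.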

How the results depend on the processing

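Under the 7 alternatives other than leaving out 1 replicate, 143 of 147 values of the 7 genes kept their direction and their side of the threshold, as did 267 of 273 values with 1 replicate left out. The exceptions concern Cd53, Aif1 and Ptprc in comparisons that were not called. Cd53 in sciatic nerve against brain was called with library totals only (-0.56) and with brain replicates 1 and 2 left out (-0.34). Cd53 in optic nerve against brain changed sign with the replicate block (0.08) and ranged from -0.14 to 0.06 with 1 replicate left out. The block changed no call of the 7 genes, but lost several of named list genes. Against brain these included Adgrg6 in optic nerve (3.87, adjusted p = 0.0981) and Celsr3 in sciatic nerve (4.12, adjusted p = 0.22). Also lost against brain were Tspan2 in both nerves, Fcer1g in sciatic nerve and Gna11 in optic nerve. Between the nerves Coro1a and Irak3 were lost. Aif1 in optic nerve against brain was called without brain replicates 1 and 2 (0.96) and ranged from 0.20 to 0.72 with 1 replicate left out. Ptprc between the nerves ranged from -0.15 to 0.04 with 1 replicate left out. Library totals only gave 4942 genes lower in sciatic nerve than in brain, against 3219, and 35 listed genes lower in optic nerve than in brain, against 21. Leaving out brain replicates 1 and 2 gave 29 listed genes higher in sciatic than in optic nerve, against 19. The cause of these shifts was not tested. Of the values of named list genes, 53 lost their call with 1 replicate left out and 22 under the other alternatives. Depth limits Adgre5 in brain (1 read), Adgrg6, Cd55, Col3a1, Lbp and Trem1, whose ratios to brain rest on 0 to 3 reads. The list genes Adgrg6, Cd55, Col3a1, Lbp, Trem1, Celsr3, Tspan2, Spn and Itgal passed the filter on low counts through the nerves. Any calls of these genes against brain follow from that selection, in the list counts as well. Of these, Adgrg6, Cd55 and Lbp passed through sciatic nerve alone and Trem1 through optic nerve alone. Their calls between the nerves follow from that selection too.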
